A study of Homo sapiens with 2 samples.

Results

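Peaks called with the GFI1 antibody ab21061 and overlapped by no peak of a second GFI1 antibody, sc8558, were described here in NB4 cells. They were chosen by the overlap of the called peaks: a peak was taken when not 1 bp of it lay under an sc8558 peak. On each chromosome the longest stretch without an annotated RefSeq gene was set aside, which removed 1000 ab21061 peaks in 24 stretches. Of the 6687 ab21061 peaks left, 2403 (35.9%, 95% interval 34.8 to 37.1) had no sc8558 overlap and are called ab21061-only peaks. They were set beside the 4284 ab21061 peaks that an sc8558 peak overlapped, called shared peaks, and beside the 2320 of 6630 sc8558 peaks (35%) with no ab21061 overlap, called sc8558-only peaks.

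Both libraries came from NB4, an established human acute promyelocytic leukaemia line that carries the PML-RARA fusion gene. The cells were grown in RPMI medium with serum, no drug treatment was labelled, and the cells were fixed with formaldehyde before sonication and immunoprecipitation. There was 1 library for each antibody, so no value here has a replicate and none shows how either antibody varies between experiments. Both antibodies are labelled as raised against GFI1, but the immunoprecipitation protocol names PML/RARα, and GFI2 stands in the title given to the sc8558 library. Depth is unknown, and the files show only peaks, not the reads beneath them. A region without an sc8558 peak may therefore hold sc8558 signal below the calling threshold. All intervals are 95% intervals and cover counting error only.

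GFI1 is a zinc-finger protein that binds DNA and represses transcription in blood cells. It recruits corepressors such as the demethylase LSD1 (KDM1A) with CoREST, and histone deacetylases. It is known for limiting monocytic genes while neutrophil precursors mature, and for restraining the cycling of blood stem cells. The DNA sites reported for it hold the core AATC, often within AAATCA.

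The promoters under the ab21061-only peaks show which letters the DNA there carries. Promoter windows, taken from RefSeq on GRCh38.p14, ran from 250 bases before to 50 bases after a gene start, 300 bases in all. A gene can have several starts, each with its own window. The 4 windows printed first lie wholly under the highest-scoring ab21061-only peaks whose promoter holds AAATCA or its complement TGATTT, and these letters are in capitals. They are the windows of DOCK10 (chr2:224947000-224947299, minus strand), MCTP1 (chr5:95081596-95081895, minus strand), IL18RAP (chr2:102418371-102418670, plus strand) and SHC3 (chr9:89178769-89179068, minus strand).
DOCK10: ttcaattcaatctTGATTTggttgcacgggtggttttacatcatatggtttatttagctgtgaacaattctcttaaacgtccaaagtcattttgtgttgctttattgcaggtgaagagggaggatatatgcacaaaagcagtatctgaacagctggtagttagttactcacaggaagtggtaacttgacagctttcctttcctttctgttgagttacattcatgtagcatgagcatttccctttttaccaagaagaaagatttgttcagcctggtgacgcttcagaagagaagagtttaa
MCTP1: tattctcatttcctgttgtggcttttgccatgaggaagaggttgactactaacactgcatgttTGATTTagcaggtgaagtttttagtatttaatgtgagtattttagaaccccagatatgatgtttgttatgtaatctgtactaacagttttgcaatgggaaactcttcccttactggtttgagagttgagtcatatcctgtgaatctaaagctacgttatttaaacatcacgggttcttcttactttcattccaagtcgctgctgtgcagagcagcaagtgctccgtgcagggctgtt
IL18RAP: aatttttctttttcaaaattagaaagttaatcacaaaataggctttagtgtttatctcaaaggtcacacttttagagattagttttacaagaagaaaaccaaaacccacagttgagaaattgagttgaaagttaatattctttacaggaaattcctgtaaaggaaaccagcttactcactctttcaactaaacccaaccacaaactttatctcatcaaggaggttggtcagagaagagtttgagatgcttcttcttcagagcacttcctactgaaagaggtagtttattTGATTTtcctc
SHC3: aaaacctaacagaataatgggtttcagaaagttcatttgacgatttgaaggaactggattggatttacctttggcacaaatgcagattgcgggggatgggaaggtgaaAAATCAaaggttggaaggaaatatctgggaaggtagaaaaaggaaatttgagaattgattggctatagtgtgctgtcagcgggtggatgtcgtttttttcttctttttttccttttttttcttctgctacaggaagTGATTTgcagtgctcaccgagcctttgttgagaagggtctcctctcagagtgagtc

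The GFI1 letters began 237 bases before the start of DOCK10, which encodes an activator of the small GTPase CDC42, and 187 bases before that of MCTP1, which encodes a membrane protein with C2 domains. In IL18RAP, the gene of the accessory chain of the interleukin-18 receptor, they began 39 bases after the start. SHC3, which encodes a signalling adaptor best known in neurons, held them at 142 and at 6 bases before its start. The DOCK10 and MCTP1 windows belong to starts inside those genes, and their peaks lay 95.4 and 203 kb from the nearest gene end. The peaks over the printed windows scored 130.02 for DOCK10, 114.21 for MCTP1, 112.47 for IL18RAP and 101.83 for SHC3. The score is the authors' own MACS value, which grows as the p-value of a peak falls, and the list held no peak below 50.

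A second pair of windows, of GPR141 (chr7:37683516-37683815, plus strand) and CASP8 (chr2:201257785-201258084, plus strand), lies under the highest-scoring ab21061-only peaks whose promoter holds TGANTCA. These are a looser form of TGACTCA and TGAGTCA, the strict letters bound by the AP-1 family. The TGANTCA letters are in capitals, and those of GPR141, TGATTCA, are not a strict form.
GPR141: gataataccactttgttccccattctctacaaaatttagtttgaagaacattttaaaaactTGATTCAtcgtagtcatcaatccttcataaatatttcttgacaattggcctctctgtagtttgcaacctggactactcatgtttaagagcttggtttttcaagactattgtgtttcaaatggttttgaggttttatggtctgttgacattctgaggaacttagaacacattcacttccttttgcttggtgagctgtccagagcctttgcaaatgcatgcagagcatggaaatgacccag
CASP8: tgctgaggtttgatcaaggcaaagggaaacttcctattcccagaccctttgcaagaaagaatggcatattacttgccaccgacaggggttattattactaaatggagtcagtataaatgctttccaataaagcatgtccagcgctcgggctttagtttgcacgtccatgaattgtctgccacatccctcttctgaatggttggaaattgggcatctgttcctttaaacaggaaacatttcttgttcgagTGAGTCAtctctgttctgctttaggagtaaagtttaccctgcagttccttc

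TGATTCA began 189 bases before the start of GPR141, an orphan G protein-coupled receptor gene. TGAGTCA began 1 base before that of CASP8, the gene of an initiator caspase of death receptors. The MCTP1 window printed above held TGAGTCA too, 62 bases before its start. The peak over GPR141 scored 125.47 and the peak over CASP8 scored 117.29. The CASP8 peak lay at a start inside the gene, 24.6 kb from the nearest gene end.

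In all, 49 ab21061-only peaks wholly covered 56 promoter windows of 52 genes, out of 22198 windows of 15842 protein-coding genes. Motifs were searched on both strands, with 1 window for each gene. AAATCA was found in 11 of the 52 promoters under ab21061-only peaks (21.2%, 11.1 to 34.7), in 50 of 191 under shared peaks (26.2%) and in 11 of 53 under sc8558-only peaks (20.8%), beside 9.42% of all promoters in the table. The differences were -5.02 percentage points from shared peaks (-16.1 to 9.07) and 0.399 points from sc8558-only peaks (-15.1 to 16.0), so neither was resolved at this number of promoters. The shorter core AATC was in 73.1% of promoters under ab21061-only peaks and in 87.4% under shared peaks, a difference of -14.4 points (-28.3 to -2.83), beside 65.1% of all promoters. Under sc8558-only peaks it was in 79.2%, and that difference of -6.17 points (-22.1 to 10.1) was not resolved.

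TGANTCA was more frequent in promoters under ab21061-only peaks than under either other set. It was found in 14 of 52 promoters under ab21061-only peaks (26.9%, 15.6 to 41.0), in 18 of 191 under shared peaks (9.42%) and in 4 of 53 under sc8558-only peaks (7.55%), beside 5.75% of all promoters. The differences were 17.5 points from shared peaks (6.19 to 31.2) and 19.4 points from sc8558-only peaks (4.90 to 33.5). Counting only TGACTCA or TGAGTCA, the letters stood in 10 of 52 promoters under ab21061-only peaks, 14 of 191 under shared peaks and 3 of 53 under sc8558-only peaks. The 14 genes include SPDYE18 and SPDYE2B, copies of a duplicated family, and the divergent pair SEC31A and THAP9, whose windows overlap. AP-1 was picked out after its values were seen, as the motif with the largest gaps among the 10 searched beside AATC. Its A or T forms (TGAATCA and TGATTCA) also hold AATC or its complement. For the GGAAGT letters of ETS factors and the TGTGGT letters of RUNX factors every interval of a difference included 0. The same held for TTGCNNAA, bound by the C/EBP family, and for AGATAA, bound by the GATA family. It also held for CCAAT, bound by NF-Y, for the GC box GGGCGG, for CACCC, bound by the KLF family, and for the letters TTTAAA. Median GC content was 56.8% in promoters under ab21061-only peaks, 58.7% under shared peaks, 56.0% under sc8558-only peaks and 62.7% in all promoters.

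**Figure D1:**
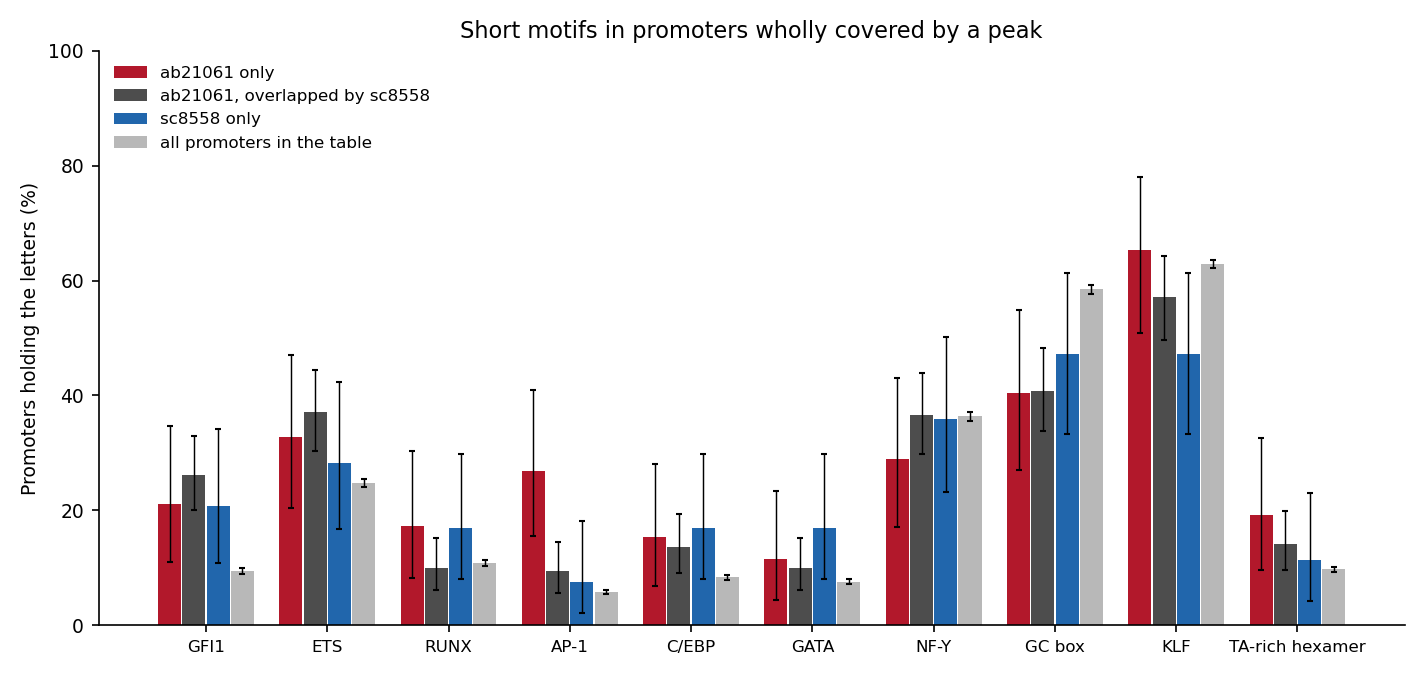
Share of promoters holding each motif (vertical axis, %) for promoters wholly covered by ab21061-only peaks (52 genes), shared ab21061 peaks (191), sc8558-only peaks (53) and for all 15842 promoters in the table. Bars are shares and lines are exact 95% intervals; the AP-1 bar of the ab21061-only set stands at 26.9%, above the other 3 bars of that motif.

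The peaks were selected on calls that rest on these scores, so scores and widths are given as a description. The median score was 62.47 for ab21061-only peaks (quartiles 54.87 and 77.83) and 109.12 for shared peaks, and sc8558-only peaks had a median of 61.64 on their own library's scale. A score of 100 or more was reached by 223 ab21061-only peaks (9.28%) and by 54.9% of shared peaks, while 1043 ab21061-only peaks (43.4%) lay below 60. Median widths were 676 bp for ab21061-only peaks, 869.5 bp for shared peaks and 651 bp for sc8558-only peaks. The ab21061-only share of the list was 68.1% among peaks scoring 50 to 60, 50.4% from 60 to 80, 33.2% from 80 to 100 and 17.6% from 100 to 150. At 150 or more it was 18 of 1410 peaks (1.28%).

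Gaps to the other list, which the rule also uses, spanned a wide range. The nearest sc8558 peak lay a median of 54.8 kb away from an ab21061-only peak, and 910 of them (37.9%) were over 100 kb from any. Within 1 kb of an sc8558 peak lay 164 (6.82%). For 114 of these the neighbouring sc8558 peak was itself overlapped by another ab21061 peak, and for the other 50 it was not, so those stood as separate single peaks of each antibody. Median scores were 63.91 within 1 kb, 62.99 from 1 to 100 kb and 61.25 beyond 100 kb, and 8.68% of the farthest peaks still scored 100 or more. The nearest shared peak lay a median of 96.4 kb away.

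At the edge of the rule, a peak near NOVA1 scored 53.4 and missed an sc8558 peak by 3 bp, and a peak near TM9SF3 scored 59.15 and missed one by 4 bp. The next closest lay inside PPP3CA and TPD52, both with gaps of 20 bp, and inside IKZF1 with a gap of 26 bp. Just outside the rule, peaks nearest to PRPF38B and KCTD12 overlapped an sc8558 peak by 3 bp each, with scores of 51.28 and 58.7. Overlaps of 8, 18 and 18 bp kept peaks nearest to LOC124901649, ANKRD44 and CITED2 in the shared set.

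**Figure D2:**
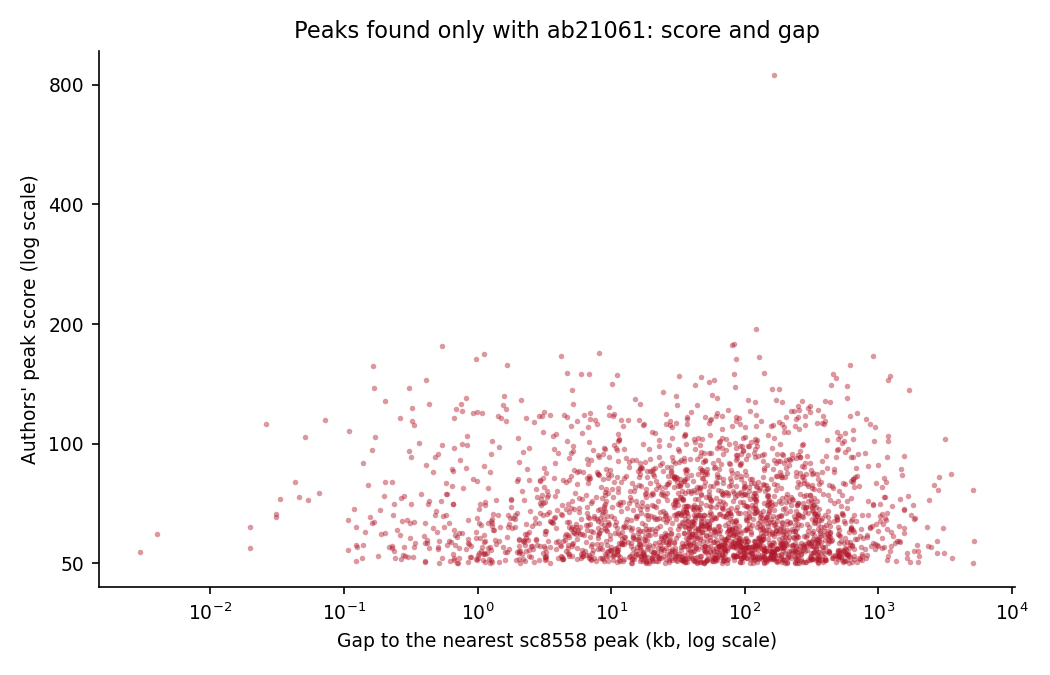
Authors' peak score (vertical, log scale) against the gap to the nearest sc8558 peak (horizontal, kb, log scale) for the 2403 ab21061-only peaks, 1 point each. Most points lie at low scores and gaps of 10 kb or more, and a single point stands far above the rest at a score of 846.75.

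The strongest ab21061-only peak stood far above the others. It lay on chromosome 11 from 94233351 to 94239972, was 6622 bp wide, scored 846.75 and had its nearest sc8558 peak 164 kb away. It overlapped the long non-coding RNA gene LOC105369435, 54.7 kb from PANX1, which encodes a membrane channel. No other ab21061-only peak reached 200.

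The next peaks lay inside or near genes of varied roles. A peak inside SGK1, a kinase gene, scored 177.66 with the nearest sc8558 peak 83.4 kb away. A peak inside YWHAB, which encodes a 14-3-3 adaptor protein, scored 168.37, and its sc8558 neighbour, 1.12 kb away, scored 66.38. On chromosome X a peak of 169.09 lay 14.4 kb from XK and 33.5 kb from the start of CYBB, the gene of the catalytic subunit of the phagocyte NADPH oxidase. Inside NOX3, which encodes another NADPH oxidase, a peak scored 165.16. A peak 11.9 kb from ME1, the cytosolic malic enzyme gene, scored 166.16 and stood 905 kb from any sc8558 peak. Over the tRNA gene TRX-CAT1-4, 35.2 kb from BTN3A2, a peak scored 175.63 and lay 0.543 kb from an sc8558 peak of 133.6. These peaks thus ranged in isolation, some beside an sc8558 peak and some far from any.

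Fewer ab21061-only peaks than shared peaks lay at gene starts. Midpoints within 1 kb of the start of a protein-coding gene were found for 128 of 2314 ab21061-only peaks (5.53%, 4.64 to 6.54), 364 of 4117 shared peaks (8.84%) and 163 of 2239 sc8558-only peaks (7.28%). The differences were -3.31 points from shared peaks (-4.56 to -2.01) and -1.75 points from sc8558-only peaks (-3.19 to -0.326). The comparison at starts alone was chosen after the data were seen. The planned measure took either end of a gene and is given below. Chromosome 8 was not assessed for starts. Within 1 kb of the finish alone lay 1.38% of ab21061-only peaks, 1.14% of shared peaks and 1.25% of sc8558-only peaks, with both intervals of the difference including 0.

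Taking either end of a gene, 169 ab21061-only peaks (7.03%) lay within 1 kb, against 9.85% of shared peaks and 8.49% of sc8558-only peaks. The difference from shared peaks was -2.82 points (-4.15 to -1.43), and after shared peaks were weighted to the scores of the ab21061-only peaks it was -2.92 (-4.70 to -1.18). The difference from sc8558-only peaks was -1.46 points, and its interval (-2.995 to 0.0684) included 0. By score, the ab21061-only and shared shares lay apart between 50 and 60, at 5.94% (4.59 to 7.56) and 11.5% (8.77 to 14.6). From 60 to 80 they were 8.04% and 8.28%, and among peaks of 100 or more the difference of -3.44 points had an interval that included 0 (-6.35 to 0.791).

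**Figure D3:**
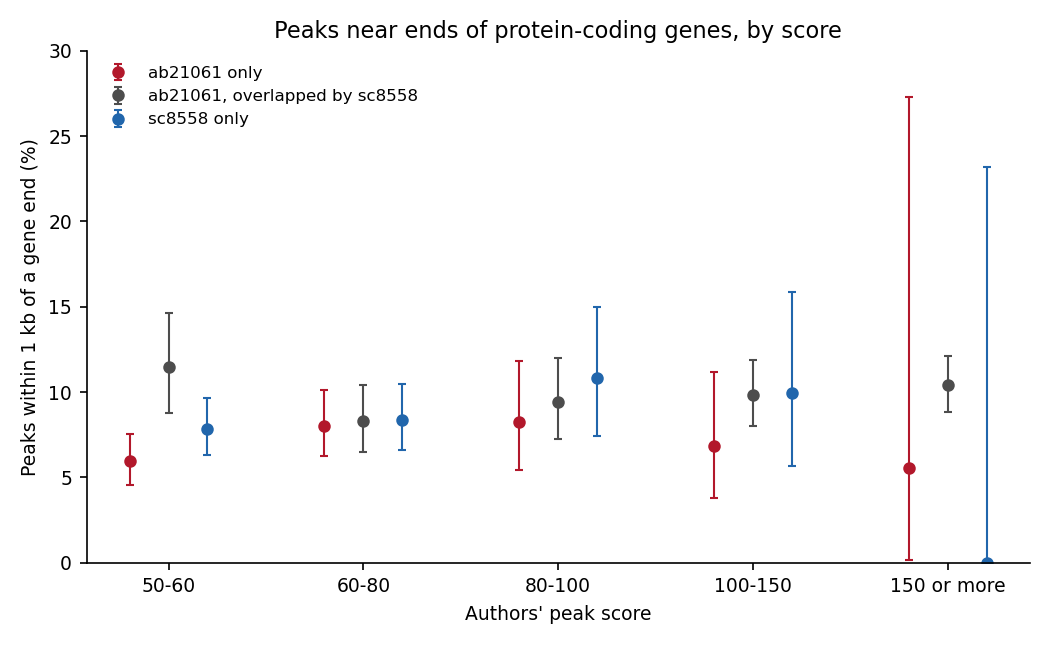
Share of peaks with a midpoint within 1 kb of a protein-coding gene end (vertical, %) by the authors' score (horizontal) for ab21061-only, shared ab21061 and sc8558-only peaks. Points are shares and lines are exact 95% intervals; the ab21061-only and shared intervals are separate between 50 and 60, where the shares are 5.94% and 11.5%.

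Far from gene ends the order was the other way. Over 100 kb from any protein-coding gene end lay 545 ab21061-only peaks (22.7%), 17.2% of shared peaks and 21.1% of sc8558-only peaks. The difference was 5.52 points from shared peaks (3.52 to 7.56) and 1.60 points from sc8558-only peaks (-0.758 to 3.96). This distance also counts peaks deep inside long genes. Of the 545, 384 lay outside protein-coding genes (16.0% of ab21061-only peaks), against 11.4% of shared and 14.8% of sc8558-only peaks. Those differences were 4.54 points (2.82 to 6.32) and 1.20 points (-0.865 to 3.25). Median distances to an end were 31.7 kb for ab21061-only peaks, 23.2 kb for shared peaks and 28.3 kb for sc8558-only peaks. Inside protein-coding genes lay 50.3% of ab21061-only peaks, 50.8% of shared peaks and 51.3% of sc8558-only peaks, and the differences of -0.505 points (-3.001 to 1.99) and -0.938 points (-3.79 to 1.91) were not resolved. Long non-coding RNA genes were overlapped by 18.3% of ab21061-only peaks, 18.4% of shared peaks and 17.8% of sc8558-only peaks. Within 2 Mb of a stretch that had been set aside lay 3.58% of ab21061-only peaks, 2.24% of shared peaks and 2.84% of sc8558-only peaks.

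**Figure D4:**
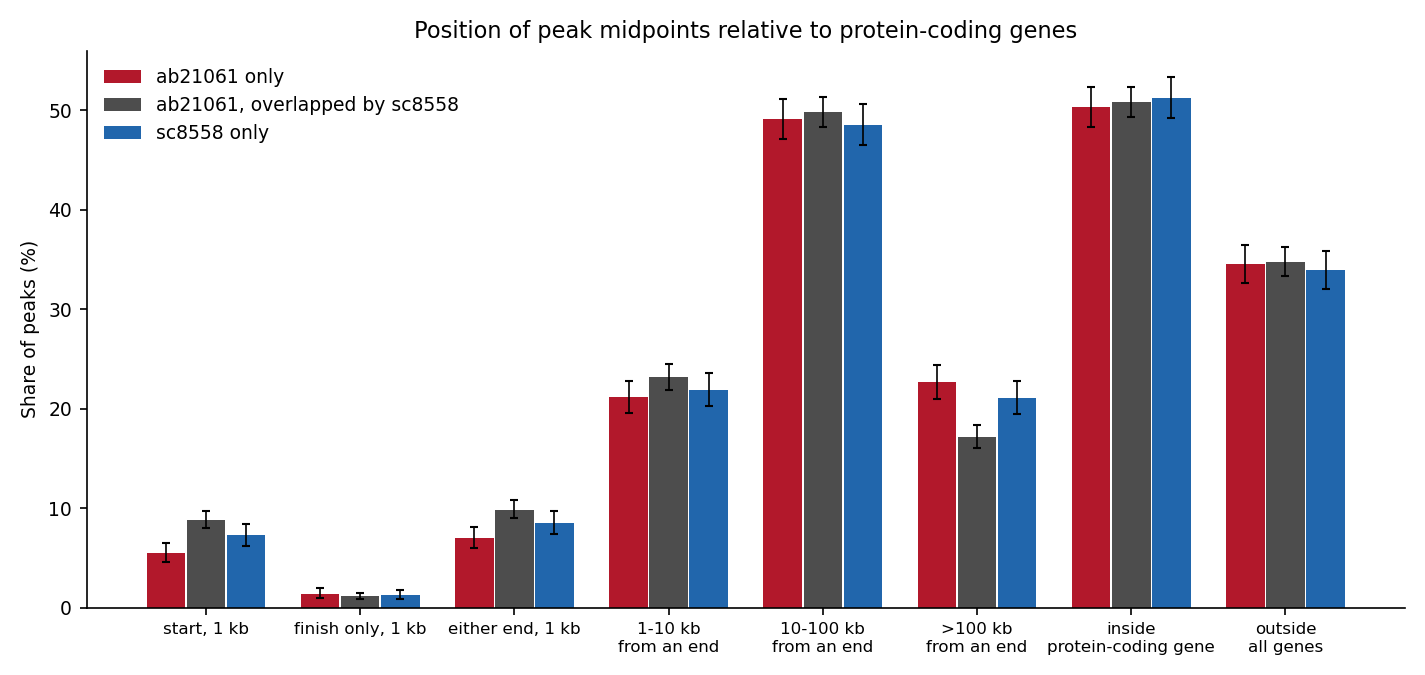
Share of peaks (vertical, %) by the position of the midpoint relative to protein-coding genes for ab21061-only, shared ab21061 and sc8558-only peaks; lines are exact 95% intervals. The ab21061-only bar is lowest at gene starts (5.53%) and highest beyond 100 kb from an end (22.7%), and the 3 bars inside genes lie between 50.3% and 51.3%.

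The highest-scoring ab21061-only peaks at gene ends covered a mixed group of genes. A peak at the start of SCPEP1, which encodes a serine carboxypeptidase, scored 165.89 and lay 0.402 kb from the start. PNRC1, a nuclear receptor coregulator gene, had a peak of 149.3 at 0.767 kb. Near IFIT2, an interferon-induced gene, and inside the neighbouring lipase gene LIPA, a peak scored 131.87. AGA, the gene of a lysosomal enzyme, had a peak of 125.79 at 0.047 kb from its start, and GPR141 the peak of 125.47 over the window printed above.

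Several of these peaks were not isolated from sc8558 signal. PDE6H, a phosphodiesterase subunit gene, had a peak of 116.19 with an sc8558 peak of 175.2 at 0.264 kb. KLHL32 had a peak of 113.86 with a single sc8558 peak of 58.75 at 0.323 kb. The remaining peaks of this group were nearest to LOC124905320 (112.79), IL18RAP (112.47), IVNS1ABP (106.8), DUSP6 (105.96) and SUV39H2 (102.39), with sc8558 gaps between 11.2 and 54.0 kb. DUSP6 encodes a phosphatase that inactivates ERK, and SUV39H2 a histone H3 methyltransferase. The SUV39H2 peak also lay inside DCLRE1C, a DNA repair gene.

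An ab21061-only peak lay inside or within 10 kb of 1459 of 20033 protein-coding genes (7.28%), and within 1 kb of an end of 185 (0.923%). Shared peaks reached 2597 genes (13%) and sc8558-only peaks 1511 (7.54%) by the wider measure. Genes with an ab21061-only peak had a median length of 83.1 kb, against 22.3 kb for genes without one. Of the genes with an ab21061-only peak, 35.4% also had a shared peak, against 11.2% of those without. The other 942 had none, and the part of gene length in these counts was not tested.

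Some long genes held several ab21061-only peaks. ITPR2, which encodes a receptor channel that releases calcium from internal stores, held 6 with scores from 51.31 to 89.79, next to 7 shared and 5 sc8558-only peaks. ELF1, an ETS family transcription factor gene, held 5 with scores of 121.95, 71.31, 71.27, 59.12 and 50.81, next to 9 shared peaks, and its ab21061-only peaks lay 0.189 to 3.18 kb from an sc8558 peak. GRM5, a glutamate receptor gene of neurons, also held 5, but with 0 shared and 0 sc8558-only peaks. The GRM5 scores of 50.32 to 55.83 were all close to the floor of the list, and the nearest sc8558 peaks were 139 to 376 kb away. DACH1, PDE3A, RNLS, RTN4, RUNX1, SPIDR and TNFAIP8 held 4 each.

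Haematopoietic transcription factor genes held ab21061-only peaks in 14 of 61 cases (22.95%, 13.2 to 35.5), beside 7.28% of all genes. These cases came from 25 distinct peaks. The median gene length was 24.1 kb in this list and in all genes. Genes with an ab21061-only peak had a median of 83.1 kb, and the part of gene length was not tested. None of the 61 genes had an ab21061-only peak within 1 kb of either end. Over all genes that share was 0.923%, so this does not set the list apart. The SATB1 peak lay 0.857 kb from a start of that gene and 19.4 kb from its nearest end. ETV6, a repressor of the ETS family, had a peak of 157.43 inside the gene, 1.67 kb from an sc8558 peak. ELF1 followed with its 121.95. FOXP1, a forkhead factor gene, and IKZF1, the gene of the lymphoid regulator Ikaros, had peaks of 112.08 each. The FOXP1 peak lay 391 kb from an sc8558 peak and the IKZF1 peak 0.026 kb. Of the 14 genes 10 also held a shared peak, and 27 of the 61 held one (44.3%), against 13% of all genes.

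RAS-ERK feedback and signalling genes held ab21061-only peaks in 11 of 35 cases (31.4%, 16.9 to 49.3), beside 7.28% of all genes. Shared peaks were counted in 14 (40%), beside 13% of all genes. The median gene length in this list was 86.1 kb, against 24.1 kb in all genes, and the part of gene length was not tested. The SGK1 peak of 177.66 led those named here. MAP3K1, a kinase gene upstream of JNK and ERK, held 3 ab21061-only peaks, the highest at 115.25. DUSP6 held or neighboured 2 and had no shared peak.

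Receptor genes gave smaller counts. Cytokine and growth factor receptor genes had an ab21061-only peak in 6 of 33 cases (18.2%, 6.98 to 35.5). That interval includes the 7.28% of all genes. A shared peak was counted in 14 (42.4%), beside 13% of all genes. TGFBR2 and TGFBR1, which encode both chains of the TGF-β receptor, had peaks of 115.97 and 98.9. IFNAR2 and IL10RB, neighbouring genes of an interferon and an interleukin-10 receptor chain, lay by the same ab21061-only peak of 67.8. Chemokine receptor, integrin and adhesion genes had 7 of 34 (20.6%, 8.70 to 37.9), beside 7.28% of all genes. In this list 13 had a shared peak (38.2%), beside 13% of all genes. CXCR4, the receptor that holds blood cells in the marrow, had a peak of 95.66 inside the gene, 0.057 kb from an end and 0.305 kb from an sc8558 peak. SELPLG, the P-selectin ligand gene, had 68.85, and ITGB2, the gene of the β2 integrin chain, 66.12.

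Monocyte and neutrophil genes had ab21061-only peaks that scored between 51.71 and 93.32, around the median of 62.47 for all ab21061-only peaks. Among monocyte and macrophage genes 4 of 25 had an ab21061-only peak (16%, 4.54 to 36.1), beside 7.28% of all genes. A shared peak was counted for 9 (36%), beside 13% of all genes. CD33, a sialic acid receptor gene of myeloid cells, had a peak of 93.32 beside it, 6.38 kb from its end and over the start of SIGLECL1. CLEC7A, the β-glucan receptor gene, had 56.76, CD36, a scavenger receptor gene, 53.61, and FCGR1A, the high-affinity IgG receptor gene, 51.71. Among neutrophil granule genes 4 of 34 had an ab21061-only peak (11.8%, 3.30 to 27.5). These were BPI, which encodes a bactericidal protein, at 75.99, the lysozyme gene LYZ at 66.01, CYBB at 51.98 and RNASE2, an eosinophil granule ribonuclease gene, at 51.97. The intervals of both lists include the 7.28% of all genes. At a score of 60 or more the counts were 1 of 25 and 2 of 34, beside 898 of 20033 for all genes.

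Genes tied to GFI1 itself gave counts of ab21061-only peaks that did not stand apart from all genes. Among reported GFI1 targets 3 of 35 had an ab21061-only peak (8.57%, 1.80 to 23.1, beside 7.28% of all genes). They were CXCR4 at 95.66, the interferon response factor gene IRF8 at 65.39 and MYC at 64.47. A shared peak was counted for 9 of the 35 (25.7%), beside 13% of all genes. None of the 24 corepressor partner genes had an ab21061-only peak, against 5 with a shared and 5 with an sc8558-only peak. Over all genes the shares were 13% for shared and 7.54% for sc8558-only peaks. The interval for 0 of 24 reaches 14.2% and includes the 7.28% of all genes. GFI1, its paralog GFI1B, PML and RARA had 0 ab21061-only peaks within 10 kb. The nearest lay 54.4 kb from GFI1 with a score of 53.91, 56.3 kb from GFI1B with 56.21, 159 kb from RARA with 111.78 and 1521 kb from PML with 54.41.

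The list of retinoid and PML-RARA genes and the list of apoptosis genes had 4 of 33 each (12.1%, 3.40 to 28.2). That interval includes the 7.28% of all genes. DHRS9 and DHRS3, both dehydrogenase or reductase genes of retinoid metabolism, had peaks of 103.92 and 92.22, and the DHRS9 peak lay 0.051 kb from an sc8558 peak. CD38, a gene induced by retinoic acid in myeloid cells, had 2 peaks, the higher at 71.36, and ALDH1A1, which encodes a retinaldehyde dehydrogenase, 1 at 65.87. In the apoptosis list the death receptor gene FAS had a peak of 143.12 inside the gene, which also lay inside the overlapping gene ACTA2. CASP8 had 2 ab21061-only peaks, led by the promoter peak of 117.29. MDM4, a p53 regulator gene, had 68.06 and CFLAR, which encodes an inhibitor of CASP8, 51.73. None of these 4 apoptosis genes had a shared peak, beside 35.4% of all genes with an ab21061-only peak, and a count of 4 is too small to set them apart.

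Cell cycle genes had 6 of 39 (15.4%, 5.86 to 30.5), an interval that includes the 7.28% of all genes. They were led by AURKB, a mitotic kinase gene, at 81.31 and E2F1 at 75.5. CDK6, the kinase gene, and RB1, the retinoblastoma gene, followed with 58.8 and 52.28. Of the liver and neuron genes 1 of 29 had an ab21061-only peak (3.45%, 0.0873 to 17.8). Olfactory receptor genes had 2 of 392 (0.510%), OR9A4 and OR7A17, with a median gene length of 2.94 kb, and ZNF zinc-finger genes had 20 of 517 (3.87%), led by ZNF644 at 147.65. Replication-dependent histone genes had 10 of 69 (14.5%). Clustered genes share peaks, however, and 4 distinct ones lay behind that count, the highest at 85, nearest to H3C4. Ribosomal protein genes had 5 of 83 (6.02%), close to the 7.28% of all genes, led by RPL31 at 77.85.

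**Figure D5:**
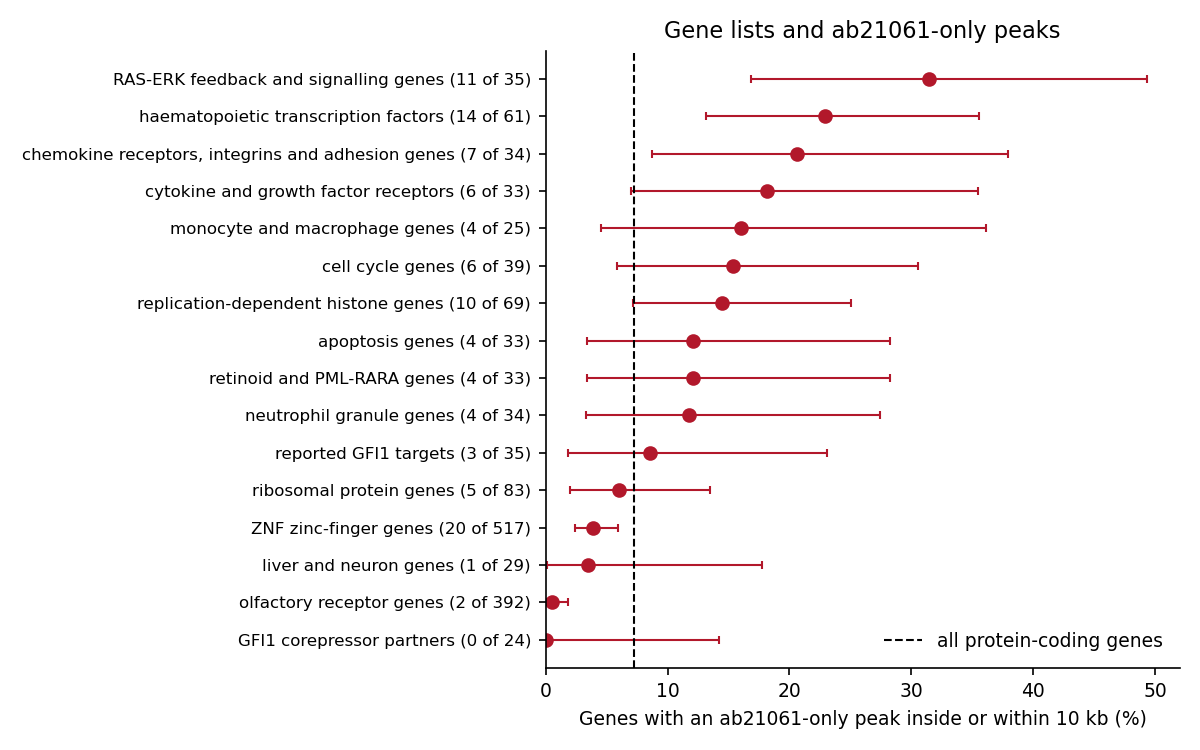
Share of genes with an ab21061-only peak inside or within 10 kb (horizontal, %) for 16 gene lists, with counts beside the names; points are shares, lines are exact 95% intervals and the dashed line is the 7.28% of all protein-coding genes. RAS-ERK (31.4%) and haematopoietic transcription factor genes (22.95%) stand highest, and corepressor partners lie at 0. The lists differ in gene length, and its part was not tested.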

How the data were processed

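Chromatin immunoprecipitation sequencing of NB4 cells gave 2 deposited peak lists, 1 library each, called per library. Per the submitters' processing notes, Bowtie2 2.2.9, MACS 1.4.2 and build hg38 were used. The sources used here give neither options nor the control. The score of each peak was deposited by the authors as the peak caller wrote it, and it was used within a list only. From these lists, overlaps from 1 bp, distances of midpoints to 20033 RefSeq protein-coding genes (GRCh38.p14), exact Clopper-Pearson intervals for shares and Newcombe intervals for their differences were computed. Tools were pandas 2.3.3, numpy 2.4.6, scipy 1.17.1 and, for plots, matplotlib 3.10.9, under Python 3.11.15, and the counting was tested on simulated data. With 1 library for each antibody no p-value was computed. The members and lists were chosen with earlier results of these data known, including the pattern of the ribosomal family, which was corrected after its values were seen. Peaks were named by rule: the 10 highest scores, the 12 highest within 1 kb of a gene end, the 5 genes with the most peaks, up to 4 genes of each list, the 5 peaks at either edge of the overlap rule, and GFI1, GFI1B, PML and RARA. Genes tied in number of peaks, and the promoters printed, were added after their values were seen. Some items this rule names are not reported here. Of 416 listed symbols, 415 were matched. Peak sequences outside promoters were not used here. Alternatives changed the overlap, the score, the gene types and the windows.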

Additional observations from a re-analysis of the deposited data

How the results depend on the processing

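No paired analysis was possible because each antibody had 1 library and no replicate. Alternatives on gene starts, on peaks within 2 Mb of a stretch and on the AP-1 letters were chosen after seeing the data. The share of ab21061 peaks without overlap was 38.9% when 50% of both peaks had to overlap, 33.5% when peaks within 1 kb counted as shared, 8.67% for scores of 100 or more against the full sc8558 list and 29.6% at that score in both lists, where fewer peaks enter. The share near gene ends minus that of shared peaks was -3.44 points at a score of 100 or more, with 0 in its interval, and between -4.64 and -2.32 elsewhere. Minus that of sc8558-only peaks the interval left out 0 with 1 kb counted as shared (-1.74), with gene-free stretches kept (-1.40), with genes of all types (-2.87) and with gene starts only (-1.75). Inside genes the sign turned against shared peaks with score weighting (0.556) and genes of all types (0.259), and against sc8558-only peaks at a score of 100 or more (3.85), always with 0 in the interval. Genes with an ab21061-only peak numbered 185 within 1 kb of an end and 898 at a score of 60 or more, where fewer peaks or positions enter, and 1372 with no sc8558 peak within 1 kb. The promoter share was 73.1% for AATC in place of AAATCA. The AP-1 difference was 11.9 to 16.6 points from shared peaks and 13.6 to 18.5 from sc8558-only peaks with 1 window for each peak, touched windows, the strict letters or no SPDYE copies. Every interval lay above 0, the lowest (strict letters, against sc8558-only peaks) from 0.709. These alternatives reuse largely the same promoters in which AP-1 was picked out, so they give no separate support. Other changes have no tested cause, and unknown depth limits any reading of a missing sc8558 peak.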

Other observations

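The peaks, windows and chromosomes named from here on were chosen after their values were seen. Small RNA genes lay under a few ab21061-only peaks: 10 overlapped a tRNA gene (0.416%), against 16 shared peaks (0.373%) and 9 sc8558-only peaks (0.388%). The highest after the one near BTN3A2 lay over the threonine tRNA gene TRT-TGT3-1 on chromosome 14, with a score of 132.35 and the nearest sc8558 peak 56.8 kb away. A peak of 67.35 near TMPO covered both an aspartate and a tryptophan tRNA gene. The spliceosomal RNA gene RNU5A-1 lay under a peak of 114.45, and the snoRNA genes SNORD50A and SNORD50B under a peak of 99.62 with an sc8558 peak 0.770 kb away. A single microRNA gene, MIR759, was overlapped, by a peak of 106.94.

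Windows of 1 Mb held at most 10 ab21061-only peaks. There were 4 such windows: an adjoining pair on chromosome 12 from 19000001 to 21000000, which includes PLEKHA5, AEBP2 and PDE3A, 1 on chromosome 21 from 12000001 and 1 on chromosome 7 from 61000001, the last 8.10 kb from a stretch set aside. The chromosome 21 and chromosome 7 windows hold no protein-coding gene. On chromosome 21 the stretch set aside lay 6990 kb from the window. In the second window of the chromosome 12 pair 11 sc8558-only peaks lay beside 2 shared peaks. By chromosome, the ab21061-only share of the list was highest on 21 (44 of 96, 45.8%, 35.6 to 56.3) and 13 (148 of 349, 42.4%, 37.2 to 47.8), and lowest, leaving out Y with its single peak, on 18 (12 of 53, 22.6%, 12.3 to 36.2). The sc8558-only share of the sc8558 list was 42.7% on 21, 35.4% on 13 and 25% on 18.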
